A study of Homo sapiens with 8 samples.

Results

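The proteasome subunit genes were examined in 8 RNA-seq libraries of 2 myeloma cell lines that carried either CTBP2 or an empty vector. The members were chosen by name. They were the genes whose symbol is PSM, a letter from A to G and a number, without 1 gene that the selection leaves out, pseudogenes and antisense genes. Of 25906 genes in the table, 47 were members, and 45 of these reached at least 1 FPKM (fragments scaled by transcript length and library total) in at least 2 libraries, as did 12583 genes in all. Of the others, PSMA8, a testis form of an alpha subunit, lay at 0 to 0.116 FPKM, and PSMB11, the catalytic subunit of the thymus proteasome, was listed at 0 in every library. PSMA8 and PSMB11 were not tested.

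MM.1S and NCI-H929 are established human lines of multiple myeloma, a cancer of plasma cells. They were transduced with a lentiviral vector that carried CTBP2, a transcriptional corepressor, or with an empty vector, and RNA was taken after 72 hours. The groups were MM.1S with CTBP2, NCI-H929 with CTBP2, MM.1S with empty vector and NCI-H929 with empty vector, each with 2 libraries from biological duplicates. All of them share the lentiviral transduction, and each line is a single established culture. Estimated depth was 16000000 to 21000000 fragments per library. CTBP2 itself lay at 1621 to 5884 FPKM in the 4 CTBP2 libraries and at 0.148 to 0.213 FPKM in the 4 empty vector libraries, which matches the vector labels. Of 10 plasma cell markers, 9 lay at 12.6 FPKM (CD38) or more in every library, among them SDC1 (192 to 345 FPKM) and XBP1 (421 to 1043 FPKM), and TNFRSF13B ranged from 0 to 121 FPKM. Of 4 T cell markers, CD3D, CD3G and CD2 stayed under 1 FPKM and CD3E ranged from 0.527 to 53.1 FPKM, and of 4 monocyte markers only ITGAM passed 1 FPKM, at up to 4.14. Of 4 epithelial markers, KRT8 and KRT19 stayed under 1 FPKM, EPCAM reached 1.27 FPKM and KRT18 26.3 FPKM.

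Both CTBP2 replicate 2 libraries went against their line labels. CTBP2 replicate 2 labelled MM.1S held 0.0582 FPKM of CCND2, which marks MM.1S here, and 22.2 FPKM of FGFR3, which marks NCI-H929. CTBP2 replicate 2 labelled NCI-H929 held 60.7 FPKM of CCND2 and 0.0399 FPKM of FGFR3. Below, the line of a library is the one its marker genes show (over 10 FPKM of CCND2 or FGFR3). These 2 libraries are called the crossed pair, and results are also given without them. Where 2 CTBP2 values are given, the first is replicate 1 and the second is the library that carries the other line's label. Empty vector values are given as replicate 1, then replicate 2.

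The proteasome degrades proteins tagged with ubiquitin. Its core particle is a stack of rings of alpha and beta subunits, with the cutting sites on 3 beta subunits inside. A regulatory cap sits on the core: its base holds ATPases that unfold the substrate, and its lid removes the ubiquitin. Assembly chaperones build the rings and the base, and alternative activators can take the place of the cap. Myeloma cells make very large amounts of secreted protein and are sensitive to proteasome inhibitors such as bortezomib, which binds mainly the site on PSMB5.

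With CTBP2, 17 of the 45 tested proteasome genes fell, 0 rose and 28 did not pass the test, in both lines together (limma on log2(FPKM + 1) with line and vector as terms, adjusted p under 0.05 over all 12583 genes). Over all tested genes, 16.7% were called lower and 17.4% higher. The fitted value was negative for 43 of the 45 members. The median log2 fold change was -0.46 over the members and 0.04 over all genes tested. The members called lower were PSMG1, PSMG2, PSMG3 and PSMG4 among the core chaperones, PSMA2, PSMA3, PSMA4, PSMA5 and PSMA6 of the alpha ring, PSMB10 of the immunoproteasome, PSMC6, PSMD1, PSMD12, PSMD13 and PSMD14 of the cap, and the activator genes PSME2 and PSME3. The core chaperones, all 4 of which fell, had a median log2 fold change of -0.70. The base chaperones PSMD5, PSMD9 and PSMD10, none of which passed, had a median of -0.02. In bulk RNA, fewer cells with these transcripts and less transcript per cell cannot be told apart.

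**Figure D1:**
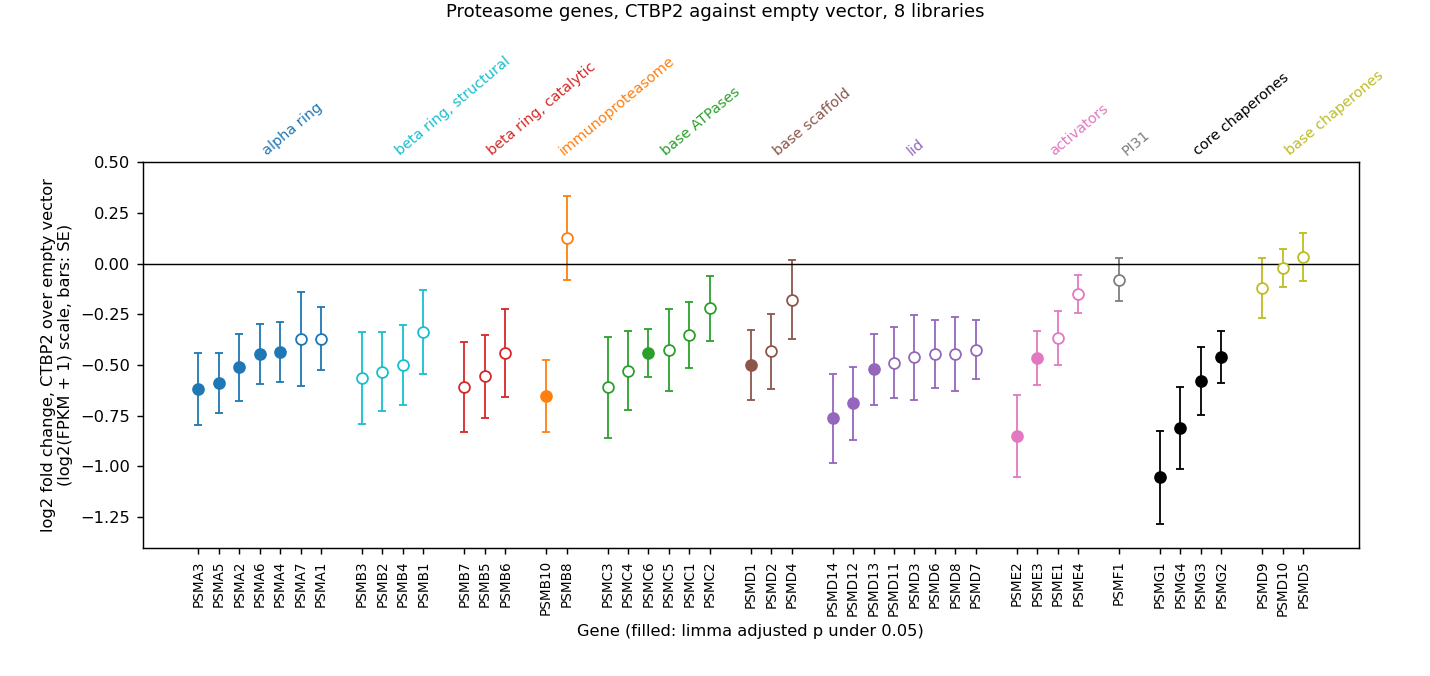
Log2 fold change of each of the 45 tested proteasome genes (vertical axis, CTBP2 over empty vector, log2(FPKM + 1) scale, both lines together), grouped by role. Points are limma estimates from 8 libraries, bars are standard errors, and filled points have an adjusted p under 0.05. All 17 filled points lie below 0, and the 4 core chaperones are all filled.

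How many members passed depended on single libraries. For the fits with 1 library left out, the share of all genes called is not given here. The swing of those counts is thus not shown to be particular to the members. Without the crossed pair, 11 members fell and 0 rose, and 10 of the 11 were among the 17. Of all genes, 13.0% were then called lower and 11.5% higher, and the members' median was -0.45. With the line of every library taken from its label, 1 member fell, PSMD12, a share near the 1.81% of all genes called lower. The count was 2 without replicate 1 of MM.1S with CTBP2, 3 without replicate 1 of NCI-H929 with empty vector, 5 without replicate 2 of MM.1S with empty vector and 6 without replicate 2 of NCI-H929 with empty vector. It was 7 without CTBP2 replicate 2 labelled MM.1S, and 25 without CTBP2 replicate 2 labelled NCI-H929. Without replicate 1 of MM.1S with empty vector or replicate 1 of NCI-H929 with CTBP2 it was 22. PSMG1 and PSME2 passed in all 8 of these fits, and 15 of the 17 lost their call in at least 1, with adjusted p-values between 0.0503 and 0.134 there. The median of the members stayed between -0.57 and -0.35 in the 8 fits.

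The members moved together between replicates as well. Within NCI-H929 cells with CTBP2, 42 of the 45 members were lower in CTBP2 replicate 2 labelled MM.1S than in replicate 1, by a median of -0.59 on the log2 scale, while the median over all genes was 0.06. Among MM.1S cells with CTBP2, 43 were higher in CTBP2 replicate 2 labelled NCI-H929 than in replicate 1, by a median of 0.39. With empty vector, 42 were higher in MM.1S replicate 2 than in replicate 1 (median 0.33), and 38 were lower in NCI-H929 replicate 2 than in replicate 1 (median -0.19). In each line the direction between replicates was the same with CTBP2 and with empty vector. No fit paired equal replicate numbers within a line. The shift between 2 replicates of a group was thus of the same order as the shift with CTBP2. The members are therefore not separate observations of the vector's effect.

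Summed over the 45 members, the level was 3050 and 4009 FPKM in MM.1S cells with CTBP2, against 4019 and 5120 FPKM with empty vector. In NCI-H929 cells it was 4347 and 2807 FPKM with CTBP2, against 5574 and 4720 FPKM with empty vector. Every CTBP2 library lay below both empty vector libraries of its line, in MM.1S only narrowly. The total of all FPKM values moved the same way, at 459733 to 544210 in CTBP2 libraries and 547097 to 659837 in empty vector libraries. As a share of that total the members took 0.613, 0.775, 0.799 and 0.611% with CTBP2 and 0.735, 0.830, 0.857 and 0.715% with empty vector, and the 2 sets of libraries overlapped. The part of the total in the members' lower values was not tested.

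Rescaling changed the number of calls more than the direction. The members' median was -0.45 after a median-of-ratios rescale, -0.19 after quantile normalization, and -0.17 after the totals were made equal without immunoglobulin genes and CTBP2. The number called lower was 13, 5 and 3 under these scalings, where 16.3, 15.8 and 6.9% of all genes were, and 0 were called higher under any of them. The share of members called lower was thus above that of all genes after median of ratios, below it after quantile normalization and close to it with equal totals. The fitted value was negative for 43, 40 and 37 of the 45 members. With equal totals the values of PSMC2, PSMD4, PSMD5, PSMD9, PSMD10, PSME4, PSMF1 and PSMB8 were positive. Equal totals moved the median of all genes to 0.27. Relative to the median of all genes, the members' median was -0.50 as deposited, -0.49 after median of ratios, -0.18 after quantile normalization and -0.43 with equal totals. PSMG1, PSMG4 and PSME2 were called lower under all 4 scalings, and quantile normalization also called PSMA5 and PSMD12.

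**Figure D2:**
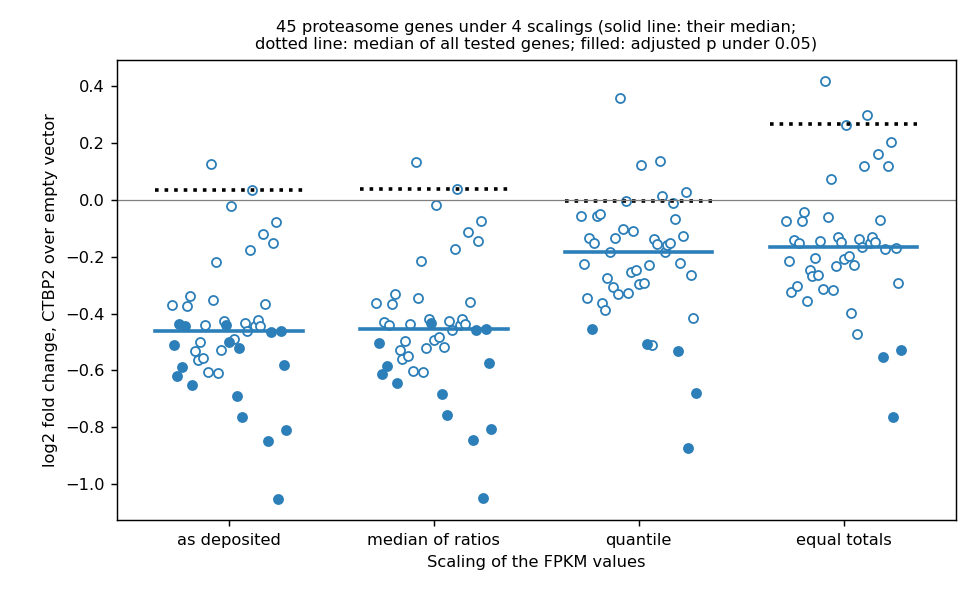
Log2 fold change of the 45 proteasome genes with CTBP2 over empty vector (vertical axis, both lines together) under 4 scalings of the FPKM values (horizontal axis). Each point is 1 gene, filled at an adjusted p under 0.05, with the members' median as a solid line and the median of all tested genes as a dotted line. The members' median lay below that of all genes under each scaling, and the number of filled points was 17, 13, 5 and 3.

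Among the core chaperones, PSMG1 had the largest change. Its product pairs with that of PSMG2 to assemble the alpha ring. In MM.1S cells PSMG1 had 37.0 and 51.5 FPKM with CTBP2, against 63.6 and 79.5 FPKM with empty vector. In NCI-H929 cells it had 22.0 and 13.3 FPKM with CTBP2, against 57.3 and 39.4 FPKM with empty vector. The CTBP2 libraries of each line lay below its empty vector libraries, although those of MM.1S overlapped the empty vector libraries of NCI-H929. The log2 estimate was -1.05 (SE 0.23, limma adjusted p = 0.0102; 0.0109 without the crossed pair). The partner PSMG2 had 31.1 and 37.1 FPKM with CTBP2, against 38.9 and 48.6 FPKM with empty vector, in MM.1S cells. In NCI-H929 cells PSMG2 had 32.1 and 29.0 FPKM with CTBP2, against 49.1 and 42.9 FPKM with empty vector. All 4 CTBP2 libraries lay below all 4 empty vector libraries for PSMG2. Its log2 estimate was -0.46 (SE 0.13, limma adjusted p = 0.0229; 0.0485 without the crossed pair). PSMG2 lost its call, at the adjusted p in brackets, without replicate 1 of MM.1S with CTBP2 (0.0725), replicate 2 of MM.1S with empty vector (0.0690), CTBP2 replicate 2 labelled MM.1S (0.0539), replicate 1 of NCI-H929 with empty vector (0.0723) or replicate 2 of NCI-H929 with empty vector (0.0544).

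PSMG3 and PSMG4 encode the other pair of core chaperones, which acts on the forming alpha ring. PSMG4 had 12.7 and 15.7 FPKM with CTBP2, against 24.2 and 26.5 FPKM with empty vector, in MM.1S cells. In NCI-H929 cells PSMG4 had 27.4 and 12.8 FPKM with CTBP2, against 35.2 and 32.9 FPKM with empty vector. The 2 CTBP2 libraries of NCI-H929 differed more than those of MM.1S, and both lay below the empty vector libraries. The log2 fold change of PSMG4 was -0.81 (SE 0.20, limma adjusted p = 0.0158; 0.0350 without the crossed pair), and the adjusted p was 0.0526 without replicate 1 of MM.1S with CTBP2. PSMG3 also fell, by 0.58 on the log2 scale (limma adjusted p = 0.0266; 0.0574 without the crossed pair).

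The catalytic subunits of the core, the targets of bortezomib and related drugs, did not pass in both lines together. PSMB5 carries the chymotrypsin-like site and is the main target. In MM.1S cells it had 34.8 and 46.6 FPKM with CTBP2, against 39.5 and 55.0 FPKM with empty vector. In NCI-H929 cells it had 55.0 and 36.3 FPKM with CTBP2, against 87.7 and 81.6 FPKM with empty vector. The libraries overlapped in MM.1S and lay apart in NCI-H929. The log2 fold change of PSMB5 in both lines together was -0.56 (SE 0.21, limma adjusted p = 0.0625; 0.0582 without the crossed pair). Within NCI-H929 it was -0.91 (SE 0.25, limma adjusted p = 0.0284), and within MM.1S -0.21 (limma adjusted p = 0.635). The call in NCI-H929 was lost without CTBP2 replicate 2 labelled MM.1S (adjusted p = 0.136), replicate 1 of NCI-H929 with empty vector (0.143) or replicate 2 of NCI-H929 with empty vector (0.0783). The difference between the lines was -0.70 (limma adjusted p = 0.405) and did not pass.

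PSMB6 carries the caspase-like site. It had 144 and 212 FPKM with CTBP2, against 189.7 and 248 FPKM with empty vector, in MM.1S cells. In NCI-H929 cells PSMB6 had 146 and 83.1 FPKM with CTBP2, against 185 and 147 FPKM with empty vector. The groups overlapped in MM.1S, and in NCI-H929 replicate 1 with CTBP2 all but equalled empty vector replicate 2. The log2 estimate was -0.44 (SE 0.22, limma adjusted p = 0.134; 0.168 without the crossed pair). PSMB7, the trypsin-like subunit, had 70.4 and 99.8 FPKM with CTBP2, against 98.6 and 138 FPKM with empty vector, in MM.1S cells. In NCI-H929 cells PSMB7 had 110.0 and 58.2 FPKM with CTBP2, against 149 and 122 FPKM with empty vector. Its groups overlapped slightly in MM.1S and lay apart in NCI-H929. The log2 estimate was -0.61 (SE 0.22, limma adjusted p = 0.0611; 0.0895 without the crossed pair).

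The 2 tested immunoproteasome subunits differed. They replace standard catalytic subunits in cells exposed to interferon and in many blood cells. PSMB10, the trypsin-like one, had 79.7 and 93.7 FPKM with CTBP2, against 124 and 163 FPKM with empty vector, in MM.1S cells. In NCI-H929 cells PSMB10 had 104 and 67.3 FPKM with CTBP2, against 145 and 111 FPKM with empty vector. All 4 CTBP2 libraries lay below all 4 empty vector libraries, and the log2 estimate was -0.65 (SE 0.18, limma adjusted p = 0.0216; 0.0781 without the crossed pair). The call was also lost without replicate 1 of MM.1S with CTBP2 (0.0715), replicate 2 of MM.1S with empty vector (0.0681) or replicate 1 of NCI-H929 with empty vector (0.0659). PSMB8, the chymotrypsin-like one and itself bound by bortezomib, had 48.0 and 55.4 FPKM with CTBP2, against 47.4 and 58.5 FPKM with empty vector, in MM.1S cells. In NCI-H929 cells PSMB8 had 73.9 and 39.3 FPKM with CTBP2, against 52.4 and 37.2 FPKM with empty vector. The groups overlapped in both lines, with the highest value in replicate 1 of NCI-H929 with CTBP2, and the log2 estimate was 0.13 (SE 0.21, limma adjusted p = 0.647; 0.363 without the crossed pair). Without replicate 1 of NCI-H929 with CTBP2 it was -0.08.

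**Figure D3:**
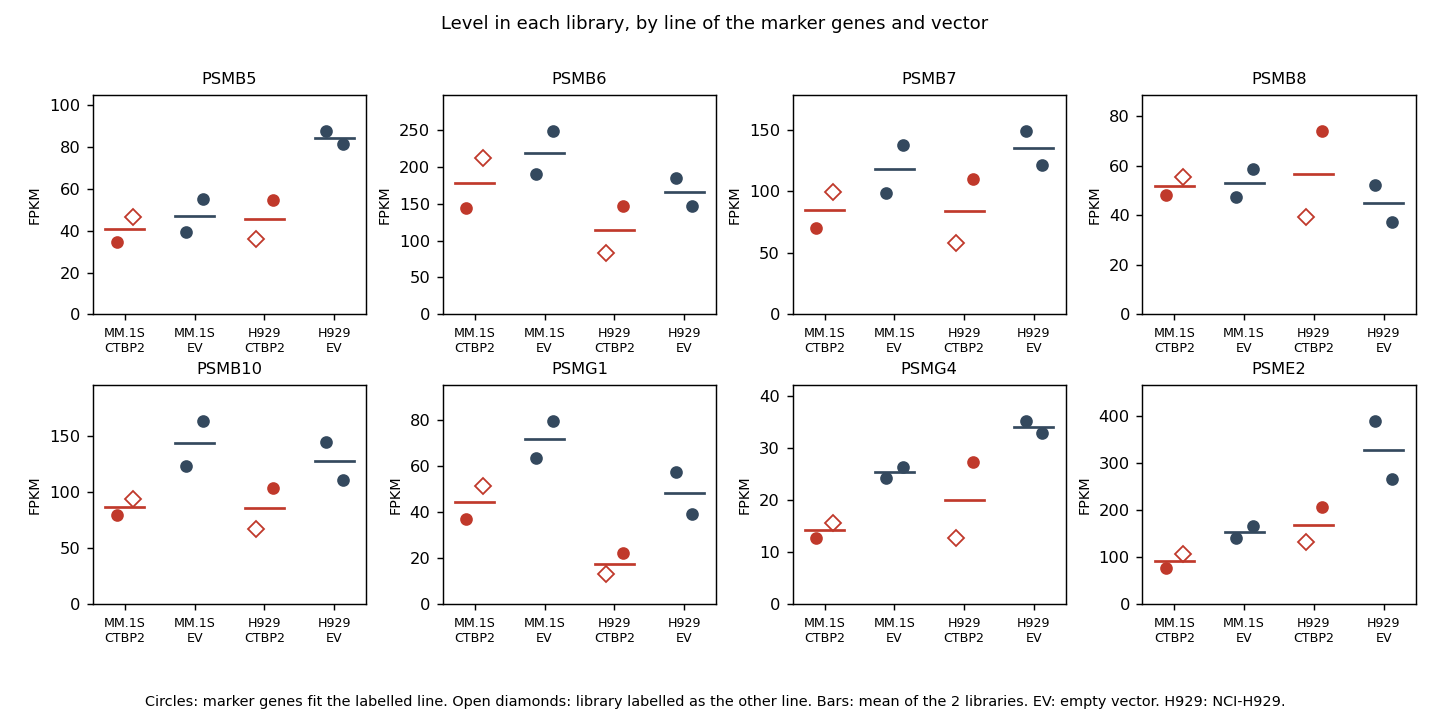
FPKM (vertical axes, from 0) of 8 proteasome genes in each library, grouped by the line its marker genes show and by vector (horizontal axes). Circles are libraries whose markers match the label, open diamonds are the 2 CTBP2 libraries labelled as the other line, and bars are means of 2. PSMG1, PSMG4, PSME2 and PSMB10 lay lower with CTBP2 in every library of both lines, while PSMB5, PSMB6 and PSMB7 overlapped in MM.1S and PSMB8 overlapped in both.

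In the alpha ring, the gate through which substrates enter the core, 5 of 7 members fell, where 16.7% of all genes were called lower. Of these 5 members, PSMA5 had the smallest p. It had 11.9 and 16.7 FPKM with CTBP2, against 18.0 and 23.5 FPKM with empty vector, in MM.1S cells, and in NCI-H929 cells 23.7 and 18.0 FPKM with CTBP2, against 34.1 and 32.6 FPKM with empty vector. Each line's CTBP2 libraries lay below its empty vector libraries, narrowly so in MM.1S. The log2 estimate was -0.59 (SE 0.15, limma adjusted p = 0.0170; 0.0284 without the crossed pair). The call was lost without replicate 1 of MM.1S with CTBP2 (0.0593), replicate 2 of MM.1S with empty vector (0.0547) or replicate 1 of NCI-H929 with empty vector (0.0503). PSMA3 changed by -0.62 (limma adjusted p = 0.0267; 0.0323 without the crossed pair), PSMA2 by -0.51 (0.0405; 0.0793), PSMA6 by -0.45 (0.0464; 0.0653) and PSMA4 by -0.44 (0.0469; 0.0610). PSMA1 and PSMA7 did not pass, at -0.37 (0.0900) and -0.37 (0.225). None of the 4 structural beta subunits PSMB1, PSMB2, PSMB3 and PSMB4 passed, with values from -0.56 for PSMB3 to -0.34 for PSMB1. Over the 14 standard ring subunits the median was -0.51.

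In the cap, 5 of 17 base and lid members fell and 0 rose, where 16.7% of all genes were called lower and 17.4% higher. The median of these 17 members was -0.45. PSMD12, a structural subunit of the lid, had 19.5 and 27.8 FPKM with CTBP2, against 30.5 and 34.2 FPKM with empty vector, in MM.1S cells. In NCI-H929 cells PSMD12 had 31.6 and 21.4 FPKM with CTBP2, against 56.1 and 45.1 FPKM with empty vector. The CTBP2 libraries of each line lay below its empty vector libraries, and the log2 estimate was -0.69 (SE 0.18, limma adjusted p = 0.0187; 0.0167 without the crossed pair). The call was lost without replicate 1 of MM.1S with CTBP2 (0.0607) or replicate 1 of NCI-H929 with empty vector (0.0569). PSMD14, the metalloprotease that strips ubiquitin from substrates, had 46.4 and 73.8 FPKM with CTBP2, against 73.0 and 92.0 FPKM with empty vector, in MM.1S cells. In NCI-H929 cells PSMD14 had 44.0 and 26.8 FPKM with CTBP2, against 79.9 and 65.2 FPKM with empty vector. In MM.1S the second CTBP2 library lay above the first empty vector library, and in NCI-H929 the groups lay apart. The log2 estimate was -0.76 (SE 0.22, limma adjusted p = 0.0265; 0.0157 without the crossed pair), and the call was lost without replicate 1 of MM.1S with CTBP2 (0.0798), replicate 2 of MM.1S with empty vector (0.0663), CTBP2 replicate 2 labelled MM.1S (0.0520), replicate 1 of NCI-H929 with empty vector (0.0793) or replicate 2 of NCI-H929 with empty vector (0.0636).

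Of the 6 ATPases of the base, only PSMC6 passed, where 16.7% of all genes were called lower. PSMC6 had 21.6 and 27.4 FPKM with CTBP2, against 29.9 and 36.4 FPKM with empty vector, in MM.1S cells. In NCI-H929 cells it had 37.7 and 35.8 FPKM with CTBP2, against 52.4 and 49.0 FPKM with empty vector. Each line's groups lay apart, and the log2 estimate was -0.44 (SE 0.12, limma adjusted p = 0.0216; 0.0395 without the crossed pair). The call was lost without replicate 1 of MM.1S with CTBP2 (0.0762), replicate 2 of MM.1S with empty vector (0.0683), replicate 1 of NCI-H929 with empty vector (0.0628) or replicate 2 of NCI-H929 with empty vector (0.0524). The values of PSMC1, PSMC2, PSMC3, PSMC4 and PSMC5 lay between -0.61 for PSMC3 and -0.22 for PSMC2. PSMC1 has 13 named pseudogenes in GENCODE, the most of any member, and 10 of the 45 members have at least 1, so some reads could have been shared with such copies. PSMD4, a ubiquitin receptor of the base, had 181 and 239.7 FPKM with CTBP2, against 215 and 297 FPKM with empty vector, in MM.1S cells. In NCI-H929 cells PSMD4 had 422 and 265 FPKM with CTBP2, against 365 and 341 FPKM with empty vector, and the groups overlapped in both lines. Its log2 estimate was -0.18 (limma adjusted p = 0.491), and 0.14 after quantile normalization.

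Among the activators, PSME2 fell. With PSME1 it forms the interferon-inducible ring that opens the core without ATP. PSME2 had 77.2 and 107 FPKM with CTBP2, against 139.5 and 165 FPKM with empty vector, in MM.1S cells. In NCI-H929 cells it had 206 and 131 FPKM with CTBP2, against 388 and 266 FPKM with empty vector. Both lines' groups lay apart, and with either vector NCI-H929 cells had the higher level. The log2 fold change of PSME2 was -0.85 (SE 0.20, limma adjusted p = 0.0131; 0.0227 without the crossed pair). Its partner PSME1 had a value of -0.37 (SE 0.13, limma adjusted p = 0.0604), with the groups apart in both lines. PSME3, the nuclear activator, had 46.9 and 53.0 FPKM with CTBP2, against 58.9 and 56.9 FPKM with empty vector, in MM.1S cells. In NCI-H929 cells PSME3 had 38.8 and 38.1 FPKM with CTBP2, against 66.5 and 61.5 FPKM with empty vector, and all 4 CTBP2 libraries lay below all 4 empty vector libraries. Its log2 estimate was -0.46 (SE 0.13, limma adjusted p = 0.0253; 0.0433 without the crossed pair), and the call was lost without replicate 1 of MM.1S with CTBP2 (0.0625), CTBP2 replicate 2 labelled MM.1S (0.0586), replicate 1 of NCI-H929 with empty vector (0.0798), replicate 1 of NCI-H929 with CTBP2 (0.0573) or replicate 2 of NCI-H929 with empty vector (0.0749). PSME4, the activator linked to histone breakdown, did not pass (-0.15, limma adjusted p = 0.233) and was positive with equal totals (0.12).

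The base chaperones and the regulator PSMF1 lay near 0. PSMD10 had 29.1 and 29.0 FPKM with CTBP2, against 29.2 and 30.8 FPKM with empty vector, in MM.1S cells, and in NCI-H929 cells 20.2 and 20.6 FPKM with CTBP2, against 19.9 and 20.9 FPKM with empty vector. PSMD5 had 11.8 and 11.9 FPKM with CTBP2, against 11.6 and 10.4 FPKM with empty vector, in MM.1S cells, and in NCI-H929 cells 5.66 and 7.62 FPKM with CTBP2, against 6.29 and 7.24 FPKM with empty vector. In NCI-H929 the groups overlapped for both genes, and in MM.1S they lay apart by under 1 FPKM, lower with CTBP2 for PSMD10 and higher for PSMD5. The log2 fold changes were -0.02 (SE 0.09) for PSMD10, 0.03 (SE 0.12) for PSMD5, -0.12 (SE 0.15) for PSMD9 and -0.08 (SE 0.10) for PSMF1, with limma adjusted p-values from 0.544 to 0.863. With equal totals these 4 values were all positive, from 0.16 to 0.30.

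Counted by library rather than by model, 21 of the 45 members were lower in every CTBP2 library than in every empty vector library of the same line, in both lines, as were 19.9% of all genes. In the higher direction it was 0 of 45 members and 21.4% of all genes. Over all 8 libraries, 4 of 45 members lay wholly lower with CTBP2 (PSMB10, PSMD6, PSME3 and PSMG2) and 0 wholly higher, as did 7.45% and 7.21% of all genes. Of the 17 called members, 13 were apart within each line, in both lines, and PSMA4, PSMD1, PSMD13 and PSMD14 were not. These 17 were called from the same libraries, so this count is only a description. The share among all genes called lower is not given here.

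Within a single line the counts were smaller. In MM.1S 0 of 45 members passed in either direction, where 1.8% of all genes were called lower and 3.67% higher. At an unadjusted limma p under 0.05, 6 members were lower. The share of all genes at that unadjusted threshold is not given here. The members' median was -0.33 in MM.1S. The largest falls in fitted value there were PSMG4 (-0.80, limma adjusted p = 0.137), PSME2 (-0.74, 0.153) and PSMB10 (-0.71, 0.131), and positive values were seen for PSMD5 (0.10, 0.750) and PSMF1 (0.01, 0.969). Without the crossed pair the median was -0.50 and 1 member was called lower, where 5.56% of all genes were called lower and 5.8% higher. In fits without the crossed pair each line has 1 CTBP2 library, which is assumed to vary like the empty vector libraries. In NCI-H929 10 members fell and 0 rose, where 14.6% of all genes were called lower and 18.3% higher, and the median was -0.59. These were PSMA4, PSMA5, PSMB5, PSMD11, PSMD12, PSMD14, PSME2, PSME3, PSMG1 and PSMG2, of which 8 also fell in both lines together.

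PSMG1 had the largest change in NCI-H929, -1.42 (SE 0.29, limma adjusted p = 0.00975), followed by PSMD14 with -1.05 (0.0290) and PSME2 with -0.96 (0.0372). For the fits with 1 library left out below, the share of all genes called is again not given. Without the crossed pair, 2 members fell in NCI-H929, PSMG1 and PSME3 (limma adjusted p = 0.0436 and 0.0461), where 6.52% of all genes were called lower and 8.81% higher, and the median was -0.28. With 1 library left out, the NCI-H929 count was 0 without replicate 1 of NCI-H929 with empty vector, 2 without CTBP2 replicate 2 labelled MM.1S, and 4 without replicate 2 of NCI-H929 with empty vector. It was 6 without either MM.1S empty vector library and 34 without replicate 1 of NCI-H929 with CTBP2. Each of the 10 lost its call in at least 1 of these fits, at adjusted p-values from 0.0515 to 0.227.

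The effect of CTBP2 was not shown to differ between the lines for any member. The interaction contrast called 0 of 45 members, where 0.334% of all genes were called lower and 0.922% higher. An unadjusted limma p under 0.05 was seen for 1 member, and the share of all genes at that threshold is not given here. The median of the difference, NCI-H929 effect minus MM.1S effect, was -0.22, and 40 of 45 members were negative. Without the crossed pair, with 1 CTBP2 library left per line, that median was 0.26 and 9 were negative. Without CTBP2 replicate 2 labelled MM.1S alone it was 0.04, with 16 negative, and without CTBP2 replicate 2 labelled NCI-H929 alone it was -0.03, with 28 negative. With equal totals 23 were negative. The most negative differences were PSMG1 (-0.73, SE 0.41, limma adjusted p = 0.451), PSMB5 (-0.70, SE 0.36, 0.405) and PSMD14 (-0.57, SE 0.41, 0.583). The most positive were PSMB8 (0.31, SE 0.42, 0.801), PSMD4 (0.20, SE 0.40, 0.877) and PSMB10 (0.12, SE 0.37, 0.928).

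With empty vector, 10 of 45 members were higher and 6 lower in NCI-H929 than in MM.1S, where 22.1% of all genes were called higher and 28.7% lower. The members were thus called higher about as often as genes in general, and the count of lower ones gives a smaller share than that of all genes. All 7 members on chromosome 14 were higher. The gene with the largest value was PSME2, at 388 and 266 FPKM in NCI-H929 and 139.5 and 165 FPKM in MM.1S (1.08, SE 0.29, limma adjusted p = 0.0150). PSMC1, an ATPase of the base, had 94.1 and 82.0 FPKM in NCI-H929 and 37.5 and 53.5 FPKM in MM.1S (0.96, SE 0.23, limma adjusted p = 0.00981), and the lines lay apart. PSMA3 of the alpha ring had 142 and 134 FPKM in NCI-H929 and 64.8 and 83.5 FPKM in MM.1S (0.90, SE 0.26, limma adjusted p = 0.0187). The other 4 on this chromosome were PSMB5 (0.85), PSME1 (0.81), PSMA6 (0.69) and PSMC6 (0.60).

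The 393 tested genes of chromosome 14 had a median log2 difference of 0.56, and 53.7% of them were called higher in NCI-H929 and 6.11% lower. The 7 proteasome genes there had a median of 0.85, and the 38 members on other chromosomes had one of -0.18. Of those 38, PSMD7 of the lid (0.85), PSMA5 (0.67) and the base chaperone PSMD9 (0.67) were higher in NCI-H929. PSMA1, PSMD10 and PSMF1 were lower there, at -0.61, -0.54 and -0.50. PSMD2, a scaffold of the base, had 111 and 109 FPKM in NCI-H929 and 196 and 248 FPKM in MM.1S (-0.99, SE 0.28, limma adjusted p = 0.0167). PSME4 had 9.09 and 9.60 FPKM in NCI-H929 and 16.9 and 15.5 FPKM in MM.1S (-0.74, SE 0.13, limma adjusted p = 0.00239), and PSMD5 differed by -0.63. In each of these the empty vector libraries of the lines lay apart. Calls were lost when an empty vector library was left out. Such a fit has 1 empty vector library left in that line and fewer residual degrees of freedom. Why calls were lost was not tested. The share of all genes called in those fits is not given here. Of the empty vector libraries, replicate 2 of MM.1S cost the fewest calls when left out. Instead of 16, the count was 1 without replicate 1 of NCI-H929 with empty vector, 3 without replicate 1 of MM.1S with empty vector and 7 without replicate 2 of NCI-H929 with empty vector. Of the 16, only PSME4 passed in all 8 fits with 1 library left out, and the others lost their call in at least 1, at adjusted p-values from 0.0508 to 0.223.

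**Figure D4:**
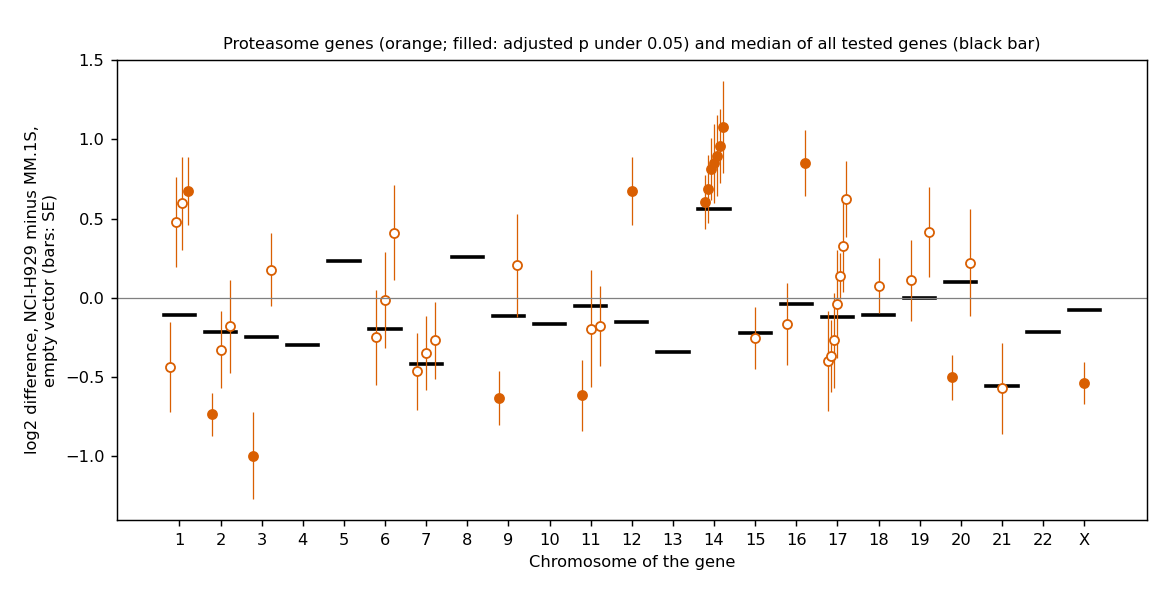
Log2 difference between NCI-H929 and MM.1S with empty vector (vertical axis) by chromosome (horizontal axis). Points are the proteasome genes with their standard errors, filled at an adjusted p under 0.05, and black bars are the medians of all tested genes on each chromosome. The 7 genes on chromosome 14 are all filled and above 0, and the bar of chromosome 14 stands at 0.56.

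By level per length, PSMB4 of the beta ring had the highest median over the 8 libraries, 469 FPKM, with a range of 310 to 752. PSMD4 followed with a median of 281 FPKM and PSMA7 with 238 FPKM. The lowest tested members were PSMD5, with a median of 9.0 FPKM, PSME4 with 12.1 FPKM and PSMD9 with 15.7 FPKM. Within the alpha ring, whose subunits are present in equal number in the complex, medians ran from 20.7 FPKM for PSMA5 to 238 FPKM for PSMA7.

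Promoters of the members were looked at for elements known from proteasome genes. RefSeq promoter sequences (GRCh38.p14, 250 bases before the start) matched 39 of the 45 members and 10036 of the 12583 tested genes. A pair of GAAA sites with any 2 bases between them, as found in interferon-responsive promoters, was in 5 of 39 members (12.8%) and in 2.52% of all promoters. The core of the antioxidant response element, TGACNNNGC, to which NFE2L1 and NFE2L2 bind, was in 10 of 39 members (25.6%) and in 12.4% of all. CCAAT was in 16 of 39 (41.0%) and in 35.8% of all, and CACGTG in 3 of 39 (7.69%) and in 9.30% of all. Both strands were searched, and matches to different motifs were counted separately even where they overlapped. Of the 16 called members with a promoter, 4 held the GAAA pair and 4 held TGACNNNGC, as did 1 and 6 of the 23 members not called. The called members' matches to the GAAA pair in PSMB10, PSME2 and PSMG4 are shown since they are identical over all 10 bases, and those to TGACNNNGC in PSMG1, PSMG2, PSMD12 and PSME2 since these genes fell. Capitals mark the match, each window has 30 bases, and sequences read along the gene's strand.
PSMB10, chr16:67936852-67936881, minus strand: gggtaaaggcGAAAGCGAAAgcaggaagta
PSME2, chr14:24146619-24146648, minus strand: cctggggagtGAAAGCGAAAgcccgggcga
PSMG4, chr6:3258904-3258933, plus strand: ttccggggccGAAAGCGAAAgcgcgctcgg
PSMG1, chr21:39183615-39183644, minus strand: gcccagggcaTGACAGCGCgggcgggcggt
PSMG2, chr18:12658689-12658718, plus strand: cagtttcccgTGACCCCGCggccgctctgc
PSMD12, chr17:67366723-67366752, minus strand: agacaaaaccTGACGCTGCaggctggagtg
PSME2, chr14:24146766-24146795, minus strand: ccctggactgTGACCCAGCcagcaccgcct
A match is a description of these letters and not a shown binding site.

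The counts of surrounding gene lists stand beside 17.4% of all genes called higher and 16.7% lower in both lines together, and with 4 to 11 genes a list they are coarse. Of 5 subunit or assembly genes without a PSM symbol, 2 fell and 0 rose: POMP, which helps the core mature, changed by -0.50 (limma adjusted p = 0.0306; 0.0405 without the crossed pair), and PAAF1, which binds the base ATPases, by -0.43 (0.0261; 0.0632). POMP lost its call in 6 of the 8 fits with 1 library left out (adjusted p up to 0.0926) and PAAF1 in 4 (up to 0.0868). The ubiquitin receptor gene ADRM1 had -0.49 (0.146). Of 4 genes for enzymes that bind the cap, 2 fell, the deubiquitinases UCHL5 and USP14. UCHL5 had 15.5 and 19.0 FPKM with CTBP2, against 30.4 and 29.3 FPKM with empty vector, in MM.1S cells. In NCI-H929 cells UCHL5 had 11.7 and 9.72 FPKM with CTBP2, against 32.2 and 26.5 FPKM with empty vector. All 4 CTBP2 libraries lay below all 4 empty vector libraries, and the log2 estimate was -1.07 (SE 0.16, limma adjusted p = 0.00371; 0.00608 without the crossed pair). USP14 changed by -0.47 (0.0107; 0.0268). Both passed in all 8 fits with 1 library left out.

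Of 11 genes for transcription of proteasome genes, 1 rose, MAFG (0.44, limma adjusted p = 0.0367; up to 0.109 and no longer passing in 6 of the 8 fits with 1 library left out), and 0 fell, where 17.4% of all genes were called higher and 16.7% lower. NFE2L1, the factor that raises proteasome genes when the proteasome is inhibited, had 0.32 (0.0661), the related NFE2L2 had -0.01 (0.967), and DDI2, the protease that activates NFE2L1, had 0.14 (0.665). NFE2L2 was positive after quantile normalization and with equal totals (0.10 and 0.27), and DDI2 was negative after quantile normalization (-0.06). Of 10 genes for ubiquitin and its activation, 0 passed, with -0.34 (0.150) for UBB. UBB was positive, at 0.04, after quantile normalization. At an adjusted p under 0.05 the ubiquitin genes thus gave no call in either direction.

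Of 9 shuttle factors and segregase genes, which bring ubiquitinated proteins to the proteasome, 1 rose, UBQLN2 (0.51, limma adjusted p = 0.0124; 0.0467 without the crossed pair), and 2 fell, UBQLN4 (-0.49, 0.0273; 0.0137) and RAD23B (-0.33, 0.0442; 0.0913). UBQLN4 and RAD23B lost their calls in 5 and 6 of the 8 fits with 1 library left out. These counts are near those that the 17.4% of all genes called higher and 16.7% lower would give. Of 11 genes for interferon signalling and peptide presentation, 4 rose and 0 fell, beside the same 17.4% and 16.7% of all genes. IRF9, which joins STAT2 in the complex that interferon activates, changed by 1.16 (SE 0.17, limma adjusted p = 0.00380; 0.00487 without the crossed pair), STAT2 by 0.91 (0.00453; 0.00811) and NLRC5, an activator of class I genes, by 0.97 (0.00969; 0.0273). Of the members whose products belong to the interferon-inducible forms, PSME2 and PSMB10 fell in the same libraries. PSMB10 no longer passed without the crossed pair. The other such members, PSME1 (-0.37, limma adjusted p = 0.0604) and PSMB8 (0.13), did not pass.

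Of 9 genes of the aggresome and proteotoxic stress, 1 rose and 2 fell, again near the 17.4% and 16.7% of all genes. SQSTM1, the ubiquitin-binding autophagy receptor, had 485 and 594 FPKM with CTBP2, against 154 and 257 FPKM with empty vector, in MM.1S cells. In NCI-H929 cells SQSTM1 had 533 and 282 FPKM with CTBP2, against 189 and 157 FPKM with empty vector. All 4 CTBP2 libraries lay above all 4 empty vector libraries, and the log2 estimate was 1.30 (SE 0.24, limma adjusted p = 0.00652; 0.00686 without the crossed pair). The chaperone gene HSPA8 changed by -0.87 (0.0116; 0.0144) and its cochaperone BAG3 by -0.50 (0.0202; 0.0619). BAG3 lost its call in 3 of the 8 fits with 1 library left out, at up to 0.0662.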

How the data were processed

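The RNA of 8 cultures, taken with RNeasy after 72 hours of transduction, was sequenced from TruSeq libraries, per the labels' protocols. Tools listed in the submitters' processing notes are STAR (2.6.0b-1) and HTSeq (0.9.1), Trimmomatic (0.36.5) and FastQC (0.11.7), and DESeq2 (2.11.40.2), beside the build GRCh37 or hg19, without their roles. The values are FPKM, deposited by the authors. Which tool made them, with which annotation and strand setting, is not given in the sources used here. Since FPKM is relative to each library's total of fragments, the value of a gene also depends on the other genes in that library.

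Depth was estimated from the spacing of low FPKM values, of which 54.3 to 65.4% came out whole within 0.1 of a fragment. That share is too low to recover counts, so no count test was run. In fits with 1 mean per line and vector, the p-values measure the spread between the duplicates, which the series design calls biological. In both lines together, the spread also holds any difference of the vector's effect between the lines. The main fits also draw each gene's spread toward a trend over all genes.

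Genes with at least 1 FPKM in 2 libraries were tested with limma 3.58.1 in R 4.3.3 on log2(FPKM + 1), with an eBayes variance trend and Benjamini-Hochberg adjustment over 12583 genes, at an adjusted p under 0.05. The pseudocount of 1 shrinks the fold changes of low genes. Both lines together used line and vector as terms (5 residual degrees of freedom), and single lines, their difference and the baseline used 1 mean per line and vector (4 residual degrees of freedom). Where 1 library of a group was left, it is assumed to vary like the other groups. The vector came from the labels and the line from CCND2 and FGFR3. The code was tested on simulated data. The alternatives changed the pseudocount (0.1), the filter (none, or 5 FPKM), the scaling (3 others), the variance trend, the replicate block, the line (as labelled) and the libraries included.

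The members and gene lists were chosen with earlier results of these data known. Values per library are given for the catalytic subunits, for up to 10 called members by smallest p, and for up to 3 of the largest changes each way in the other comparisons. Of each surrounding list up to 3 called genes and NFE2L1, NFE2L2, DDI2, POMP, ADRM1 and UBB are named. Not reported here are 1 of 52 symbols that start like a member and 2 genes of the surrounding lists. Of the 52, 4 names are no subunit genes (PSMC3IP and 3 antisense genes). Chromosomes were known for 12545 tested genes. Figures and tables used Python 3.11.15 with pandas 2.3.3.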

Additional observations from a re-analysis of the deposited data

Results flagged for a closer look

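PSMG3-AS1, an antisense gene at PSMG3 that is no subunit gene, showed a signal with CTBP2 above every empty vector library. Its lowest CTBP2 library had 0.844 FPKM, and its highest empty vector library 0.608 FPKM. In MM.1S cells it had 0.844 and 1.05 FPKM with CTBP2, against 0.390 and 0.608 FPKM with empty vector. In NCI-H929 cells it had 1.44 and 2.27 FPKM with CTBP2, against 0.175 and 0.435 FPKM with empty vector. It reached 1 FPKM in CTBP2 libraries alone and was picked for this pattern, so the values are a description with no test. Whether counting used strand is not given in the sources used here, so reads of PSMG3 and of this gene cannot be told apart. A check for single libraries far from the other 3 of their vector, over 82 groups of 4 libraries and 41 genes, found 0. Each group mixed both lines, so a difference between the lines can hide a single far library. No conclusion is drawn from the 0.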

How the results depend on the processing

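In both lines together, 17 members were called lower, and the number was 9 without a filter, 5 after quantile normalization, 3 with equal totals, 1 with labelled lines and 11 without the crossed pair (both CTBP2 replicate 2 libraries). Leaving out 1 library at a time gave 2 to 25. Within MM.1S, 0 members were called, and 1 without the crossed pair (0 to 1 with 1 library left out). Within NCI-H929, 10 were called, and the number was 3 without a filter, 2 after quantile normalization, 1 with equal totals, 0 with labelled lines and 2 without the crossed pair (0 to 34 with 1 library left out). The baseline called 16, 0 with labelled lines, and 1 to 19 with 1 library left out. For the difference between lines the count stayed at 0 in every fit. The smaller sets of libraries hold fewer samples. The cause of the changed counts was not tested for any setting. Within NCI-H929, 14.6% of all genes were called lower as deposited, 14.5% after quantile normalization and 5.05% with equal totals. With labelled lines, 0.00795% of all genes were called lower within NCI-H929. The baseline with labelled lines called 0.00795% of all genes higher and 0.0318% lower. The counts of 0 with labelled lines are thus not particular to the members. Shares of all genes are not given here without a filter or with 1 library left out. Calls rested on 5 or fewer residual degrees of freedom.

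A replicate block called 12 members lower in both lines together, where 14.4% of all genes were called lower. Within NCI-H929 it called 5 members lower, where 12.3% of all genes were. Within a line, deviations of CTBP2 and empty vector replicate 1 from their group means correlated at 0.435 in MM.1S and 0.452 in NCI-H929. The 12583 genes behind these correlations are not independent replicates. Equal numbers thus tended to move together within a line. No fit paired them within a line, and whether the samples are paired is not known here. Across the lines the deviations correlated at -0.275 for the CTBP2 and 0.027 for the empty vector replicate 1 libraries. The block, which joins equal numbers of both lines, is thus not a grouping these deviations show.

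Of 989 values for 55 single-gene results under 18 alternatives, 802 kept their direction and their side of the threshold, 148 no longer passed, 10 newly passed and 29 changed sign, in 11 genes. In both lines together the sign changed for NFE2L2 after quantile normalization (0.10) and with equal totals (0.27), and after quantile normalization for DDI2 (-0.063) and UBB (0.045). With labelled lines it changed within MM.1S for PSMD5 (-0.19) and PSMF1 (-0.29), and in the difference between lines for PSMG1 (1.15) and PSMD14 (0.85). Without the crossed pair it changed for PSMF1 within MM.1S (-0.0015), PSMD10 within NCI-H929 (-0.014) and PSMD14 in the difference (0.10), and PSMD10 within NCI-H929 was -0.018 after median of ratios. With 1 library left out, values in both lines together ran from -0.083 to 0.27 for PSMB8, -0.069 to 0.048 for NFE2L2 and -0.095 to 0.38 for DDI2. Within MM.1S they ran from -0.044 to 0.073 for PSMF1, and within NCI-H929 from -0.16 to 0.73 for PSMB8 and -0.035 to 0.037 for PSMD10. In the difference they ran from -0.13 to 0.76 for PSMB8, -0.13 to 0.53 for PSMD4 and -0.19 to 0.43 for PSMB10.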

Other observations

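PSMC3IP, a meiotic recombination cofactor whose symbol begins like those of the cap ATPases, had 17.9 and 22.6 FPKM with CTBP2, against 31.4 and 38.3 FPKM with empty vector, in MM.1S cells. In NCI-H929 cells it had 11.1 and 7.42 FPKM with CTBP2, against 19.2 and 16.4 FPKM with empty vector. Each line's groups lay apart, and the log2 estimate was -0.82 (SE 0.15, limma adjusted p = 0.00623; 0.0135 without the crossed pair). The antisense gene PSMD5-AS1 had 12.6 and 9.34 FPKM with CTBP2, against 10.1 and 7.66 FPKM with empty vector, in MM.1S cells, and in NCI-H929 cells 5.08 and 9.94 FPKM with CTBP2, against 2.75 and 4.77 FPKM with empty vector (log2 estimate 0.54, SE 0.23, limma adjusted p = 0.0944).

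FAF1, a cofactor of the segregase VCP, was singled out after its values were seen and passed the filter through NCI-H929 alone, so its values are a description with no test. It had 18.0 and 23.0 FPKM with CTBP2 and 27.2 and 26.6 FPKM with empty vector in NCI-H929 cells, and 0.495 and 0.854 FPKM with CTBP2 and 0.277 and 0.707 FPKM with empty vector in MM.1S cells. Lines are again those of the marker genes.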
